A study of Rattus norvegicus with 15 samples.

Results

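Unannotated single-exon loci were defined as the loci of the transcript table in which no row carried a gene name, every row had 1 exon, and the summed FPKM had a mean of at least 0.5 over the 15 libraries. A total of 2876 loci met this rule, out of 40272 loci in the table and 17802 loci with a mean FPKM of at least 0.5. Without the limit on level there were 5804 unannotated single-exon loci. FPKM is the number of sequenced fragments scaled to the length of the transcript and to the size of the library. The loci were thus chosen by their mean FPKM over these libraries, so their levels are a description.

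Messenger RNA of primary brain microvascular endothelial cells (BMECs) of Sprague-Dawley rats was enriched through poly-A tails before sequencing, with 3 libraries in each of 5 groups. The donors were littermates aged 2-3 weeks, of both sexes, and all cells were grown to 60% confluence before exposure on a linear accelerator at 2.5 Gy per minute. The control group received no x-rays and is labelled as cultured for 12 h, and the other groups were collected 12 h after 5 Gy, 12 h after 20 Gy, 24 h after 5 Gy and 24 h after 20 Gy. Unexposed cells held for 24 h were not analysed here, so at 24 h the time after exposure and the time in culture cannot be told apart. Other cell types were reduced by differential adhesion, and which animals gave which library is not stated.

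Transcripts with a single exon and no annotation can be of several kinds. They include 3′ ends of messenger RNAs that run past the annotated end, transcripts that start near a promoter, primary transcripts that carry microRNAs, antisense transcripts, unspliced RNA and remnants of genomic DNA. An FPKM table does not separate these kinds, so each locus is described by its position against the named genes of the same table. Several loci lay beside microRNA genes. A microRNA is cut from a longer primary transcript and pairs with its targets through its seed. Mature microRNAs were not measured in these libraries.

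The mature sequences of 5 microRNAs whose genes neighbour the loci described in detail are shown because 3 of them share 1 seed. They were taken from a RefSeq table of the assembly GRCr8 and are written 5′ to 3′, with the seed (bases 2 to 8) in capitals.
rno-miR-34a-5p: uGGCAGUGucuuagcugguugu
rno-miR-30c-5p: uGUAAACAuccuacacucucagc
rno-let-7i-5p: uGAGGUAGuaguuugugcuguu
rno-let-7c-5p: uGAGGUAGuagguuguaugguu
rno-let-7b-5p: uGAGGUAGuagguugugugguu
The let-7 sequences have the same seed, GAGGUAG, and the other two have seeds of their own.

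The 2876 loci were short and of low level. Each consisted of 1 row of the table, so the locus sum was the value of that row. Their length ranged from 200 to 16119 bases with a median of 747 bases, compared with a median of 947.5 bases for the longest row of the 1938 unannotated loci with more than 1 exon. A total of 1016 loci were shorter than 500 bases and 86 reached at least 5000 bases. The mean FPKM had a median of 1.05, and 1501 loci reached 1, 163 reached 10 and 12 reached 100. Named multi-exon loci had a median of 11.5. The limit itself fell between MSTRG.12427 at a mean of 0.5001 FPKM and MSTRG.10175 at 0.4998 FPKM. The value of a locus rested on a median of 37.8 read equivalents of 150 bases per library (quartiles 14 and 113), and for 484 loci the median over the libraries was under 10. A total of 2460 loci were above 0 in all 15 libraries. For 502 loci the mean stayed under 0.5 when the group in which they were highest was left out.

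Most of the loci had no strand. The table gave a strand of "." for 1984 loci, plus for 401 and minus for 491. On assembled chromosomes there were 2800 loci, 3 of them on the Y chromosome, and 76 lay on unplaced sequences. A total of 752 loci shared bases with another locus of the table, and 60 of these shared them with another of the 2876 loci.

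The most frequent position was past the 3′ end of a named gene, although most loci lay elsewhere. The nearest named span on the same chromosome was used, with coordinates of Rnor_6.0 as the table gives them. A total of 1014 loci (35.3%) lay downstream of a named gene at a gap of at most 5 kb, and 625 of these lay within 1 kb. Only 6.91% of the unannotated multi-exon loci were in this class. Of the downstream loci with a strand, 228 were on the strand of the named gene and 104 on the opposite one. A further 341 loci (11.9%) lay upstream within 5 kb, 183 of them within 1 kb. A total of 457 loci (15.9%) overlapped a named span, compared with 57.0% of the multi-exon loci. Where an overlapping locus had a strand, it was opposite to the named gene in 214 cases and the same in 34. The rule left out unnamed rows that are grouped with a named gene, and the protocol is not stated to keep the strand. This split is therefore a description. The remaining loci were at over 5 to 50 kb (716 loci), at over 50 kb (291 loci), or on a sequence with no named gene (57 loci). Without an annotation of this build, the overlapping loci were not divided into exonic and intronic ones.

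**Figure D1:**
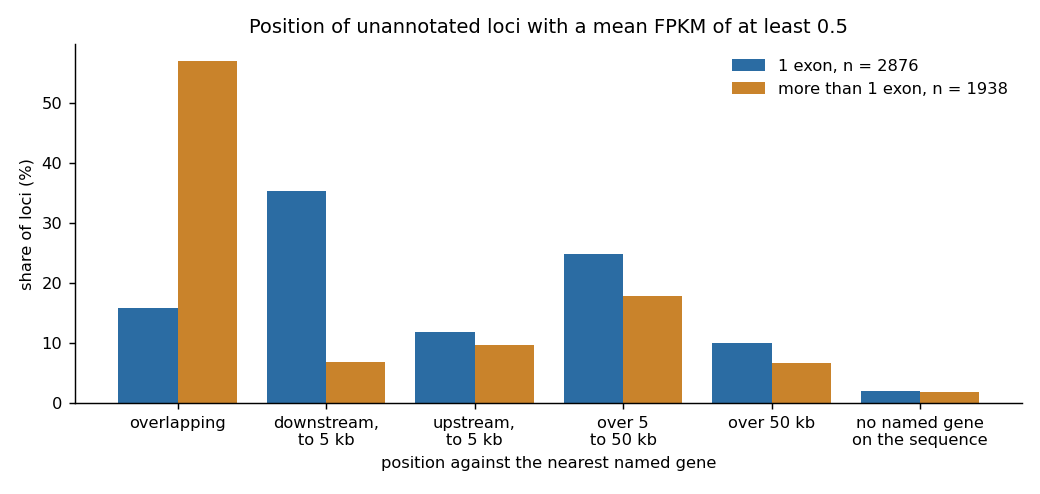
Share of unannotated loci (vertical axis, %) by position against the nearest named gene (horizontal axis), for 2876 loci with 1 exon and 1938 loci with more than 1 exon. Single-exon loci were most often downstream within 5 kb (35.3%), and multi-exon loci most often overlapped a named gene (57.0%).

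Downstream loci were also longer than the others, with a median of 1085 bases compared with 687 bases upstream, 841 bases among overlapping loci and 425 bases at over 50 kb. The median FPKM was lowest upstream (0.765) and highest at over 50 kb (1.33). These medians describe loci that had already passed the limit on FPKM.

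The libraries were of similar depth, with 5.44 to 7.49 aligned gigabases each, as read from the steps between low FPKM values. The 2876 loci took between 1.07% and 1.30% of the aligned bases in each library. The labelled cell type was not borne out by its markers, which were low. Of 15 such markers, 12 were found, their summed FPKM was 1.49 to 6.63 per library, and Tie1, Vwf, Cldn5, Esam, Emcn and Egfl7 had a mean under 0.1 FPKM in every group. The summed FPKM of 8 fibroblast markers was 1551 to 1684 in the control group, 1159 to 1331 at 12 h and 290 to 469 at 24 h. This sum was lower at 12 h after exposure than in the control group, which is labelled with the same time. It was lower again at 24 h. These are the same libraries in which the loci below changed, and the part of the markers in those changes was not tested. Col1a1 and Col3a1 fell most, from means of 438 and 535 FPKM in the control group. At 24 h after 5 Gy and 20 Gy, Col1a1 averaged 13.1 and 10.1 FPKM and Col3a1 26.9 and 36.6 FPKM. Dcn, Lum and Fn1 were also lower at 24 h. Pdgfra was not lower throughout, at 52.1 FPKM in the control group and 60.8 and 51.6 FPKM at 24 h. Postn was under 0.1 FPKM on average in every exposed group, and Col1a2 was at 0 at 12 h after 20 Gy and at 24 h. The 8 pericyte and smooth muscle markers summed to 33.8 to 72.0, the 5 microglia markers to at most 0.301, and the astrocyte, neuron and oligodendrocyte lists to at most 26.6, 10.6 and 1.22. Rgs5, Kcnj8, Abcc9, Aqp4, Rbfox3, Map2, Mbp, Mog, Olig2, Cx3cr1, P2ry12 and Ptprc had a mean under 0.1 FPKM in every group. In bulk RNA, fewer cells of a type and less RNA per cell cannot be told apart.

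At 12 h after exposure, about 1 in 10 of the single-exon loci differed from the control group, and which direction was more frequent depended on the scaling and the fold change required. Loci were tested with limma on log2(FPKM + 1), over all 17802 loci, and a locus was called where its Benjamini-Hochberg adjusted p was below 0.05 and it changed by at least 1.5 times on that scale. After 5 Gy, 162 of the 2876 loci were higher and 120 lower (9.81%), compared with 10.2% of all loci tested (5.15% higher and 5.09% lower). After 20 Gy, 164 were higher and 108 lower (9.46%), compared with 8.85% of all loci (5.01% higher and 3.84% lower). The median log2 change was 0.04 at each dose, compared with 0.03 and 0.01 over all loci. With quantile normalization the calls were 142 higher and 137 lower after 5 Gy, and 128 higher and 132 lower after 20 Gy. At a fold change of at least 2 they were 33 higher and 38 lower, and 26 higher and 30 lower. When single rows of the table were tested in place of locus sums, 171 loci passed after 20 Gy. Each of the 2876 loci is 1 row, so their values were the same in that run. Only the other rows tested beside them, and with these the adjustment and the variance prior, differed. The shares of 9.81% and 9.46% were close to those of all loci tested.

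At 24 h the number of changed loci was over 3 times as large. After 5 Gy, 441 loci were higher and 596 lower (36.1%, compared with 42% of all loci, 21.1% higher and 20.9% lower). After 20 Gy, 345 were higher and 693 lower (36.1%, compared with 41.2%, 17.5% higher and 23.7% lower). The median log2 change of the loci was -0.12 and -0.20, compared with -0.05 and -0.13 over all loci. The excess of lower loci depended on the scaling. With quantile normalization there were 510 higher and 478 lower loci after 5 Gy, and 453 higher and 472 lower after 20 Gy. It moved the median of all loci by 0.03 and 0.10. The shares of all loci under another scaling are not given here. With all libraries rescaled to the same sum the 5 Gy calls were 513 higher and 516 lower, and that scaling moved the median of all loci by 0.11. The 20 Gy calls under that scaling remained mostly lower, with 373 higher and 636 lower. Among the 2374 loci that kept a mean of at least 0.5 without their highest group, 361 were higher and 476 lower after 5 Gy and 269 were higher and 566 lower after 20 Gy.

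From 12 h to 24 h, 349 loci rose and 618 fell after 5 Gy (33.6%, compared with 37% of all loci, 17.5% higher and 19.5% lower), and 289 rose and 761 fell after 20 Gy (36.5%, compared with 37.2%, 14.7% higher and 22.5% lower). With quantile normalization these became 438 and 425 loci after 5 Gy and 437 and 454 after 20 Gy. Between the doses, 1 locus passed at 12 h (0.0348%, compared with 0.174% of all loci, 0.169% higher and 0.00562% lower), while 168 had an unadjusted p under 0.05. At 24 h, 27 loci were higher and 47 lower after 20 Gy than after 5 Gy (2.57%, compared with 2.59%, 1.04% higher and 1.54% lower). Under quantile normalization that split was 30 and 28. The change from 12 h to 24 h differed between the doses in 27 loci, 14 higher and 13 lower after 20 Gy (0.939%, compared with 0.652%, 0.326% in each direction), and in 16 and 6 loci under quantile normalization.

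**Figure D2:**
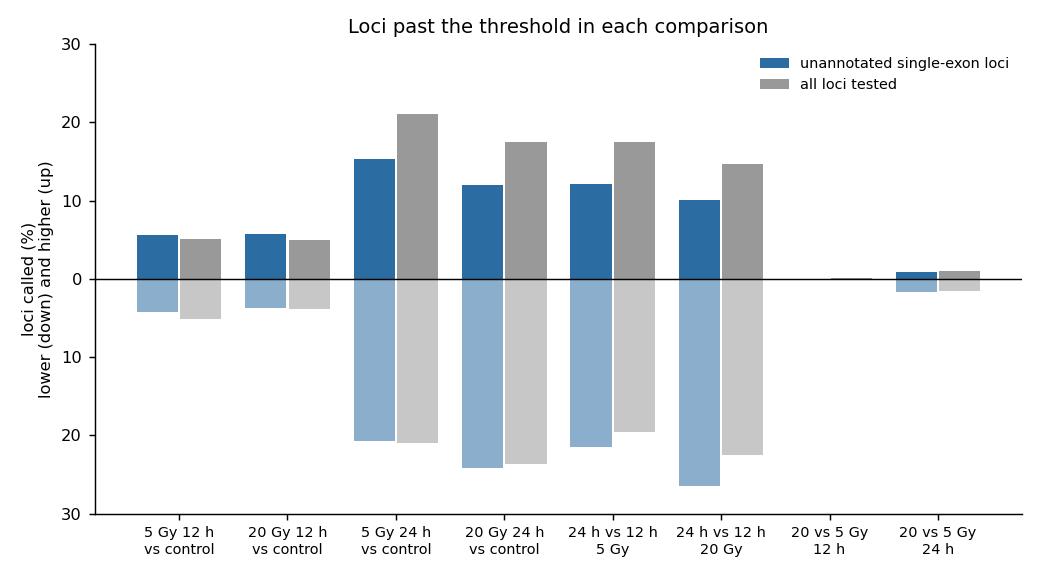
Percentage of loci past the threshold (vertical axis, higher above 0 and lower below 0) in 8 comparisons (horizontal axis), for the 2876 single-exon loci and for all 17802 loci tested. Calls after 5 Gy rose from 9.81% of the single-exon loci at 12 h to 36.1% at 24 h, and the doses differed in 2.57% at 24 h.

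A total of 1396 loci (48.5%) were called in at least 1 of the 4 comparisons with the control group, compared with 52.4% of all loci tested. Only 16 loci were higher and 58 lower in all 4 comparisons, compared with 1.53% and 2.22% of all loci (272 and 395 loci). These comparisons share the control libraries. Loci higher at both times numbered 46 after 5 Gy and 33 after 20 Gy (2.44% and 2.25% of all loci), and loci lower at both times 92 and 84 (3.86% and 2.92%). After 5 Gy, 393 loci that were not called at 12 h were higher at 24 h (13.7%, compared with 18.4% of all loci), 492 were lower (17.1%, compared with 16.7%), and 12 were higher at 12 h and lower at 24 h (0.404% of all loci). After 20 Gy these numbers were 311 (10.8%, compared with 15.1%), 590 (20.5%, compared with 20.3%) and 19 (0.433% of all loci). The opposite course was seen in 2 loci after 5 Gy and 1 after 20 Gy (0.281% and 0.197%).

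Loci upstream of named genes that changed at 12 h were mostly higher. Of the 341 loci within 5 kb upstream, 39 were higher and 7 lower after 5 Gy, and 43 were higher and 6 lower after 20 Gy. The share of higher loci was 11.4% and 12.6%, compared with 5.15% and 5.01% of all loci tested. In the downstream class, 47 loci were higher and 59 lower after 5 Gy, and 46 were higher and 57 lower after 20 Gy. The difference between the classes was not tested. At 24 h, 51 upstream loci were higher and 70 lower after 5 Gy (14.96% and 20.5%, compared with 21.1% and 20.9% of all loci). After 20 Gy, 35 were higher and 84 lower (10.3% and 24.6%, compared with 17.5% and 23.7%). Counting 1 locus per named gene left 33 higher and 6 lower upstream loci after 5 Gy, and 37 and 5 after 20 Gy. A fold change of at least 2 left 6 higher and 1 lower after 5 Gy and 4 higher after 20 Gy, so most of these changes were small. Testing single rows left 28 higher and 2 lower after 5 Gy, and 25 and 3 after 20 Gy. With a mean FPKM of at least 1, which kept 127 of the upstream loci, 13 were higher and 4 lower after 5 Gy, and 15 and 2 after 20 Gy.

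**Figure D3:**
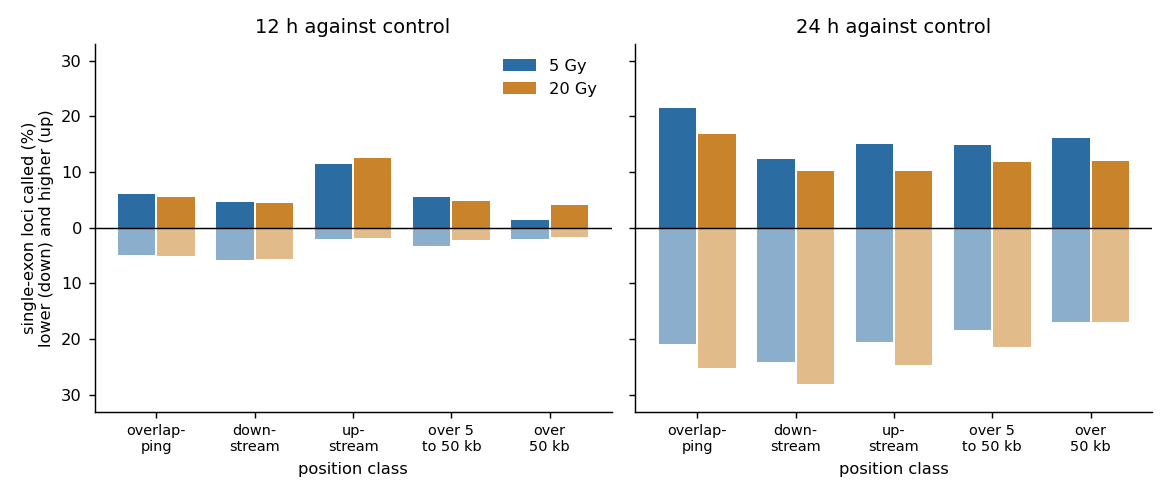
Percentage of single-exon loci past the threshold (vertical axis, higher above 0 and lower below 0) by position class (horizontal axis) for each dose against the control group, at 12 h (left) and 24 h (right). Downstream and upstream classes reach to 5 kb. At 12 h the upstream loci were higher in 11.4% and 12.6% of cases, above the other classes.

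An upstream locus of this kind was MSTRG.7765, 2144 bases upstream of Dhx15, which encodes an RNA helicase of the spliceosome. It was chosen after its values were seen. It lies at chr14:61132862-61134601 and is 1740 bases long. Its FPKM was 0.413, 0.431 and 0.731 in the control libraries, 2.99, 3.68 and 2.96 at 12 h after 5 Gy, and 2.41, 3.42 and 2.73 at 12 h after 20 Gy. It was 0.756, 0.998 and 0.974 at 24 h after 5 Gy, and 0.279, 0.297 and 0.239 at 24 h after 20 Gy. All 12 h libraries were above all others. The log2 change at 12 h had an adjusted p of 6.03e-06 after 5 Gy and 1.29e-05 after 20 Gy.

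MSTRG.4892, 524 bases upstream of Sphk1 (a sphingosine kinase), had a similar course and was likewise chosen after its values were seen. Its level averaged 1.19 ± 0.212 FPKM in the control group (SD, n = 3), 3.01 ± 0.418 and 2.81 ± 0.260 at 12 h after 5 Gy and 20 Gy, and 0.219 ± 0.119 and 0.202 ± 0.120 at 24 h. It passed the test as higher at 12 h (adjusted p = 0.000308 and 0.000711 in limma) and as lower at 24 h (adjusted p = 5.67e-05 and 4.93e-05).

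A locus that rose at 12 h and then fell was MSTRG.19223, next to the gene of miR-34a, a microRNA induced by p53. The locus is 1290 bases long, lies on the plus strand at chr5:167094604-167095893, and lies 2011 bases downstream of Mir34a. The control libraries had 1.10, 0.759 and 0.896 FPKM. At 12 h after 5 Gy the libraries had 7.86, 6.56 and 6.78 FPKM, and after 20 Gy 7.15, 7.63 and 7.22 FPKM. The 12 h libraries did not overlap with those of any other group. At 24 h the values were 1.38, 2.17 and 2.11 FPKM after 5 Gy, and 0.307, 0.553 and 0.965 FPKM after 20 Gy. The rise at 12 h was 2.07 ± 0.15 (SE) and 2.12 ± 0.15 on the log2(FPKM + 1) scale after 5 Gy and 20 Gy (adjusted p = 2.01e-06 and 1.55e-06 in limma). The change from 12 h to 24 h was -1.49 and -2.39 on that scale. At 24 h it was lower after 20 Gy than after 5 Gy, with a log2 difference of -0.85 ± 0.15 (adjusted p = 0.00787). Mir34a itself, at a mean of 0.208 FPKM, changed by 0.05 and 0.40 at 12 h after 5 Gy and 20 Gy. Its difference from the locus was not tested. MSTRG.19223 shares bases with 1 other locus.

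A total of 18 loci had a microRNA gene as their nearest named gene within 10 kb, for 14 microRNA genes, and this group was formed after the neighbours were seen. At 12 h after 5 Gy, 3 of the 18 were higher and 2 lower, and after 20 Gy 3 were higher and 3 lower. At 24 h, 2 were higher and 7 lower at each dose. These counts compare with 10.2%, 8.85%, 42% and 41.2% of all loci called in either direction.

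Besides MSTRG.19223, the loci that rose at 12 h lay by Mirlet7i and Mir15a. MSTRG.21154 lies 5 bases past Mirlet7i, a gene of the let-7 family of microRNAs, at chr7:66802827-66803484. Its control libraries had 1.29, 0.580 and 0.916 FPKM. At 12 h the libraries had 2.86, 3.91 and 2.81 FPKM after 5 Gy and 3.28, 4.67 and 4.08 FPKM after 20 Gy. The libraries at 24 h had 0.245, 0.168 and 0.245 FPKM after 5 Gy and 0.117, 0.797 and 0 FPKM after 20 Gy. The values at 12 h were above all others. The rise at 12 h was 1.13 ± 0.21 and 1.38 ± 0.21 on the log2 scale (adjusted p = 0.00205 and 0.000608). MSTRG.21154 passed the limit of 0.5 FPKM only through the 12 h groups, so its higher values at 12 h are a description. At a pseudocount of 0.1 the adjusted p after 5 Gy was 0.0550. The fall at 24 h (adjusted p = 0.0152 and 0.0233) was lost without control replicate 1 (after 20 Gy also without control replicate 3 or either of 20 Gy 24 h replicates 1 and 3) and under quantile normalization, where the adjusted p was 0.0567 and 0.0795. Single rows and a fold change of at least 2 also lost both 24 h calls, and the 20 Gy call was lost without a filter, with rescaled libraries and when only those groups were fitted. Mirlet7i itself, at a mean of 0.482 FPKM, changed by -0.53 and -0.06 at 12 h after 5 Gy and 20 Gy.

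MSTRG.8620, 5505 bases downstream of Mir15a on chromosome 15, had 1.08 ± 0.373 FPKM in the control group (SD, n = 3). It had 2.14 ± 0.0921 at 12 h after 5 Gy and 2.65 ± 0.125 after 20 Gy. The 24 h means were 0.862 ± 0.300 and 0.676 ± 0.115. The 12 h groups did not overlap with the others. The adjusted p in limma was 0.00942 after 5 Gy, where the call was lost without control replicate 2, and 0.00165 after 20 Gy. Mir15a itself had a mean of 0 FPKM.

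Loci beside Mirlet7f1 and Mirlet7c2 fell at 24 h. MSTRG.9900, which lies 13 bases upstream of Mirlet7f1 at chr17:16418327-16419266, had 3.34, 2.31 and 3.87 FPKM in the control libraries. It had 1.76, 2.01 and 1.68 FPKM at 12 h after 5 Gy and 1.48, 1.59 and 0.602 FPKM after 20 Gy. At 24 h it had 0.0468, 0.0587 and 0.0485 FPKM after 5 Gy, and after 20 Gy it was listed at 0 in 2 libraries and had 0.120 FPKM in the other. Each 24 h library was below every 12 h library, and each 12 h library was below every control library. The log2 change at 24 h was -1.97 ± 0.18 and -1.99 ± 0.18 (adjusted p = 6.98e-07 and 7.05e-07). Mirlet7f1 itself, at a mean of 0.290 FPKM, changed by -0.82 and -0.87 at 24 h.

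Upstream of Mirlet7c2, whose mature product has the let-7 seed shown above, lay MSTRG.21755 and MSTRG.21756 on opposite strands. MSTRG.21755 had 2.01 ± 0.607 FPKM in the control group, 0.955 ± 0.146 and 0.931 ± 0.256 at 12 h, and 0.0646 ± 0.0357 and 0.0854 ± 0.0266 at 24 h. MSTRG.21756 had 2.16 ± 0.469, 1.23 ± 0.122, 1.04 ± 0.258, 0.0218 ± 0.0124 and 0.0427 ± 0.0313 FPKM in the same order (SD, n = 3). Both were lower at 24 h after each dose (adjusted p from 1.67e-07 to 1.37e-06 in limma). Mirlet7c2 itself, at a mean of 0.703 FPKM, changed by -1.59 at 24 h after each dose. Downstream of Mirlet7b, MSTRG.21758 was listed at 0 in every control library and had 0.665, 1.91 and 1.48 FPKM at 24 h after 5 Gy and 0.672, 0.948 and 2.29 FPKM after 20 Gy. It passed the limit of 0.5 FPKM only through the 24 h groups and rested on a median of 1.96 read equivalents, so its higher values at 24 h are a description. Mirlet7b itself, at a mean of 0.979 FPKM, changed by -1.72 and -1.85 at 24 h after 5 Gy and 20 Gy.

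Another locus that rose at 24 h was MSTRG.23641, which abuts the 3′ end of Mir30c2 at chr9:29562460-29564837. Its FPKM was 0.909, 0.744 and 0.967 in the control libraries, 1.12, 1.24 and 0.801 at 12 h after 5 Gy, and 1.76, 1.20 and 1.04 after 20 Gy. The values at 24 h were 6.10, 7.58 and 4.55 after 5 Gy and 7.50, 5.34 and 3.50 after 20 Gy. The 24 h libraries were above all others. The log2 change was 1.90 ± 0.21 and 1.74 ± 0.21 (adjusted p = 5.90e-06 and 1.38e-05). Mir30c2 itself, at a mean of 0.198 FPKM, changed by 0.22 and 0.23 at 24 h. Next to Mir23a, MSTRG.11387 had 1.54 ± 0.0499 FPKM in the control group and 0.263 ± 0.0896 and 0.347 ± 0.0776 at 24 h, where it was lower (log2 change -1.01 and -0.91). Beside Mir331, MSTRG.20983 had 1.40 ± 0.139 FPKM in the control group and was lower at 24 h, with 0.491 and 0.370 FPKM. The 5 Gy call of MSTRG.20983 was lost without 5 Gy 24 h replicate 2. At 24 h after 5 Gy and 20 Gy, Mir23a itself changed by -0.75 and -0.85 and Mir331 by -0.46 and -0.67. Both genes were of low level, with means of 0.319 and 0.307 FPKM.

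**Figure D4:**
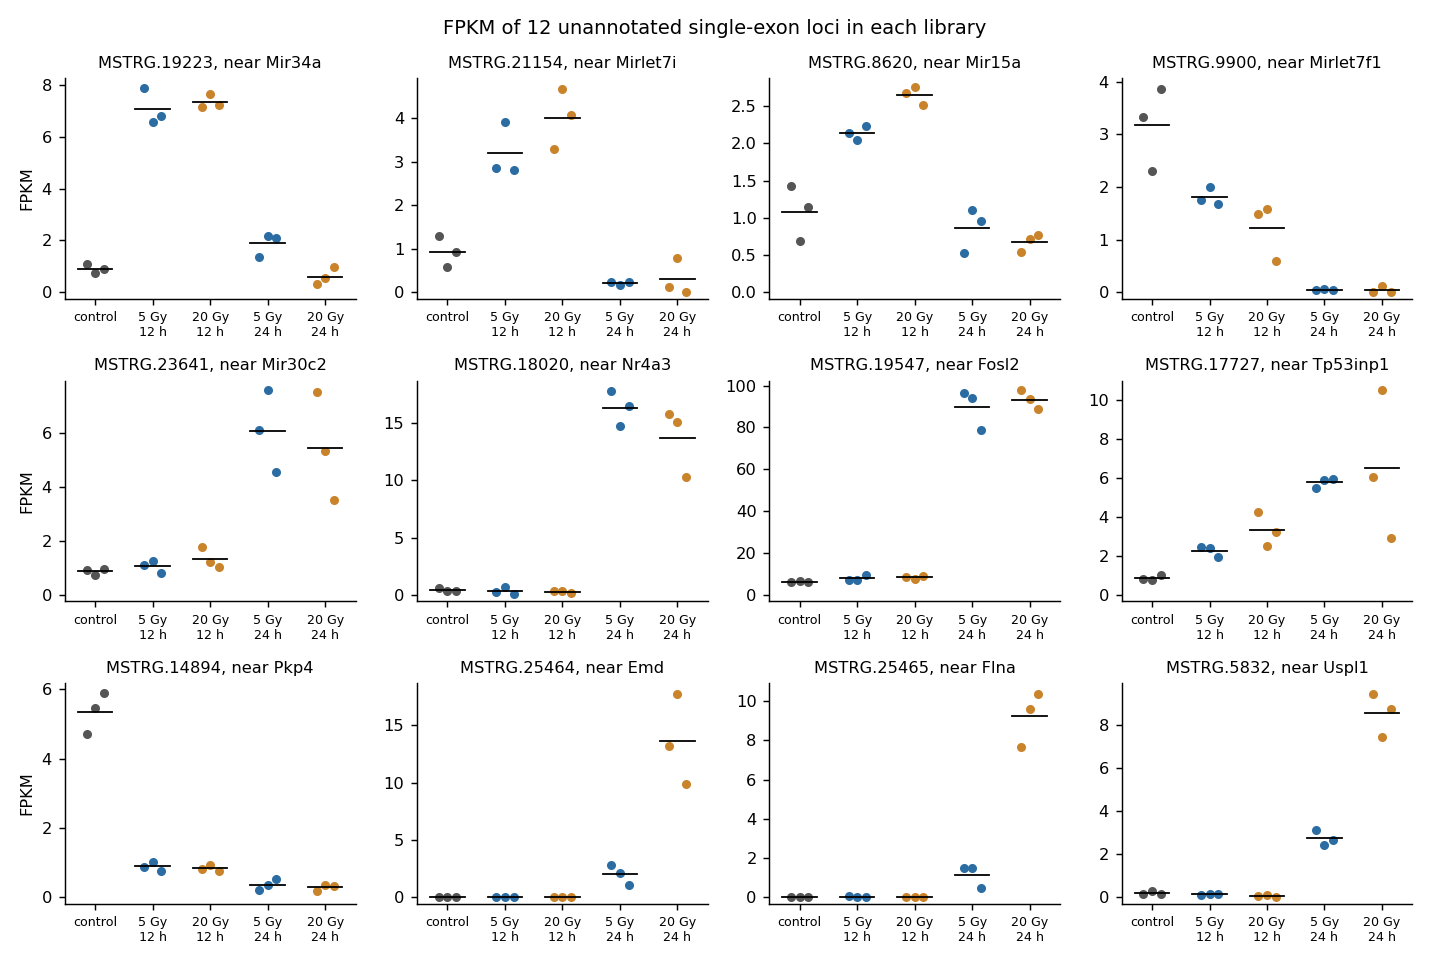
FPKM of 12 single-exon loci (vertical axes) in each of the 15 libraries, by group (horizontal axes). Points are libraries, coloured by dose, and lines are group means. The loci beside Mir34a, Mirlet7i and Mir15a peaked at 12 h, those beside Mir30c2, Nr4a3 and Fosl2 rose at 24 h, and those beside Emd, Flna and Uspl1 were higher at 24 h after 20 Gy than after 5 Gy.

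Loci beside immediate early genes, which encode transcription factors induced early after a stimulus, were higher in part at 24 h. There were 6 such loci, which lay by Nr4a3, Fosl2, Maff, Klf6 and Jun. Of the 6, 3 were higher at 24 h after each dose (21.1% and 17.5% of all loci) and none at 12 h (5.15% and 5.01%). MSTRG.18020 and MSTRG.21617, which are among these 3, passed the limit of 0.5 FPKM only through the 24 h groups. Their higher values at 24 h, and their part in this count, are therefore a description. MSTRG.18020 begins 68 bases past the 3′ end of Nr4a3, an orphan nuclear receptor, at chr5:63821706-63822883. The control libraries had 0.608, 0.301 and 0.303 FPKM, and no library at 12 h exceeded 0.674 FPKM. At 24 h the libraries had 17.8, 14.7 and 16.4 FPKM after 5 Gy and 15.8, 15.1 and 10.3 FPKM after 20 Gy, all above every other library. The log2 change was 3.63 ± 0.19 and 3.37 ± 0.19 (adjusted p = 6.45e-09 and 1.13e-08). The named Nr4a3 span itself changed by 5.99 and 6.13 on the same scale. MSTRG.18017, 1795 bases upstream of Nr4a3, was not called, with 0.841 ± 0.199 FPKM in the control group and 0.335 ± 0.0343 and 0.410 ± 0.372 FPKM at 24 h.

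MSTRG.19547 is 4254 bases long and begins 214 bases past Fosl2, a subunit of the AP-1 factor, at chr6:25594468-25598721. Its FPKM was 6.3, 6.77 and 6.04 in the control libraries, 7.06, 7.13 and 9.67 at 12 h after 5 Gy, and 8.64, 7.76 and 8.83 after 20 Gy. They were 96.5, 94.2 and 78.7 at 24 h after 5 Gy and 97.7, 93.4 and 88.7 after 20 Gy. The 24 h values were far above all others. The log2 change was 3.62 ± 0.11 and 3.68 ± 0.11 (adjusted p = 7.95e-11 and 6.77e-11). The named Fosl2 span changed by 2.14 after 5 Gy and by -0.10 after 20 Gy, and its difference from the locus was not tested. MSTRG.21617, on the minus strand within the span of Maff (a small Maf protein), had 0.211 ± 0.116 FPKM in the control group and 3.65 ± 0.671 and 3.11 ± 1.69 at 24 h (log2 change 1.94 ± 0.21 and 1.69 ± 0.21).

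Some loci beside p53 target genes were also higher. A total of 6 loci lay by Tp53inp1, Gdf15, Bax and Fas. At 12 h, 1 of them was higher after 5 Gy and 2 after 20 Gy (5.15% and 5.01% of all loci), and at 24 h 4 and 3 were higher (21.1% and 17.5% of all loci), with none lower. The others were not called. MSTRG.17727 lies 3897 bases downstream of Tp53inp1, which encodes a stress protein induced by p53. Its FPKM was 0.806, 0.775 and 1.03 in the control libraries, 2.44, 2.40 and 1.97 at 12 h after 5 Gy, and 4.25, 2.53 and 3.23 after 20 Gy. It reached 5.51, 5.90 and 5.95 at 24 h after 5 Gy and 6.06, 10.5 and 2.94 after 20 Gy. Every exposed library was above the control libraries. The adjusted p was 0.0587 at 12 h after 5 Gy, 0.0101 after 20 Gy, and 6.85e-05 and 6.92e-05 at 24 h.

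On the other side of the gene, MSTRG.17724 (328 bases upstream of Tp53inp1) was called at 24 h after 5 Gy and not after 20 Gy. It had 0.588, 1.35 and 0.593 FPKM in the control libraries, 2.86, 4.22 and 4.71 at 24 h after 5 Gy and 1.57, 1.09 and 1.13 at 24 h after 20 Gy. The 5 Gy libraries were above all others. The difference between the doses at 24 h was -1.11 ± 0.19 on the log2 scale (adjusted p = 0.00504).

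MSTRG.9187, 507 bases upstream of Gdf15 (a cytokine induced by stress), had 0.0674 ± 0.0904 FPKM in the control group and 1.19 ± 0.109 and 1.02 ± 0.186 at 24 h after 5 Gy and 20 Gy. This locus passed the limit of 0.5 FPKM only through its highest group, 5 Gy at 24 h, so its higher values are a description. It is among the loci counted above as higher at 24 h after each dose. A second locus upstream of Gdf15, MSTRG.9185, was higher at 12 h, at 2.00 ± 0.316 and 1.98 ± 0.0406 compared with 0.963 ± 0.284 FPKM, and both of these calls were lost without control replicate 3, the 5 Gy call also without 5 Gy 12 h replicate 2. MSTRG.1221, 437 bases downstream of the pro-apoptotic gene Bax, had 1.72 ± 0.752 FPKM in the control group and 5.89 ± 2.20 and 6.61 ± 2.85 at 24 h (adjusted p = 0.00275 and 0.00154). MSTRG.2805, past the death receptor gene Fas, was not called against the control group in any comparison, with 0.399 ± 0.109 FPKM in the control group and 1.19 ± 0.173 at 12 h after 5 Gy.

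The 2 loci beside heat shock genes were called higher at 24 h after 20 Gy (17.5% of all loci), but each passed the limit of 0.5 FPKM only through that group, so this is a description. MSTRG.12581, downstream of the chaperone gene Hspa4l, was higher after both doses, at 0.958 and 1.10 compared with 0.159 FPKM. The 5 Gy call was lost without 5 Gy 24 h replicate 2. MSTRG.22144, downstream of the co-chaperone gene Chordc1, had 1.84, 2.89 and 1.30 FPKM at 24 h after 20 Gy and at most 0.221 FPKM after 5 Gy. From 12 h to 24 h its log2 change was -0.63 after 5 Gy and 1.12 after 20 Gy. It rested on a median of 3.60 read equivalents.

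The study also singled out Tp53inp1, Gdf15 and Fas from these samples, whose loci are given with the p53 targets. The other genes it singled out had 6 loci beside them, and the direction of any of these loci is not independent evidence. Of these 6 loci, 1 was lower at 24 h after each dose (20.9% and 23.7% of all loci) and none was higher. It was MSTRG.190, within the span of the kinase gene Sgk1, with 1.26 ± 0.202 FPKM in the control group and 0.0145 and 0.0128 at 24 h. It rested on a median of 2.00 read equivalents and passed the limit of 0.5 FPKM only through its level in the control group. No locus lay within 10 kb of a gene on the lists for store-operated calcium entry or for long non-coding and imprinted RNAs. The loci MSTRG.19532 and MSTRG.19533 past Lbh overlap on opposite strands, and each was listed at 0 in some libraries in which the other was high. Their summed FPKM was 31.3 ± 2.55 in the control group, 71.4 ± 22.6 and 43.8 ± 1.63 at 12 h, and 7.82 ± 3.79 and 8.12 ± 3.13 at 24 h. The values of a single strand of such a pair are uncertain.

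Some loci were lower in all exposed groups. MSTRG.14894 lies on the minus strand within the span of Pkp4 (a plakophilin of cell junctions) at chr3:45373349-45374574. It had 4.70, 5.48 and 5.89 FPKM in the control libraries, 0.878, 1.03 and 0.763 at 12 h after 5 Gy, and 0.823, 0.946 and 0.760 after 20 Gy. The 24 h libraries had 0.214, 0.356 and 0.521 after 5 Gy and 0.185, 0.358 and 0.336 after 20 Gy. No exposed library reached the control libraries. The log2 change was -1.75 ± 0.11 and -1.78 ± 0.11 at 12 h and -2.22 ± 0.11 and -2.30 ± 0.11 at 24 h (adjusted p between 4.84e-09 and 9.15e-07). The named Pkp4 span changed by 0.33, 0.71, 1.69 and 0.65 in the same comparisons.

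MSTRG.24710 on the X chromosome, 226 bases long, had 49.9 ± 11.2 FPKM in the control group, 17.7 ± 4.69 and 19.5 ± 3.42 at 12 h, and 6.15 ± 1.58 and 8.92 ± 2.22 at 24 h. MSTRG.10078, with 4.23 ± 0.288 FPKM in the control group, was lower in all 4 comparisons, but its call at 12 h after 20 Gy (3.00, 0.696 and 0.168 FPKM) was lost without any one of the 3 control libraries and without 20 Gy 12 h replicate 2 or 3. Among the loci higher in all 4 comparisons, MSTRG.671 had 1.82 ± 0.0739 FPKM in the control group, 6.55 ± 0.554 and 9.81 ± 1.39 at 12 h, and 31.0 ± 1.78 and 28.5 ± 6.52 at 24 h. It lies 9512 bases past Sae1, which encodes a subunit of the SUMO-activating enzyme, and overlaps MSTRG.672 on the other strand. MSTRG.672 had similar values but was listed at 0 in 1 library at 12 h after 5 Gy and 1 library at 24 h after 20 Gy. The sum of both was 3.94 ± 0.205 FPKM in the control group and 67.9 ± 3.91 and 52.3 ± 26.7 at 24 h. MSTRG.20133, at 8.30 ± 5.44 FPKM in the control group and 39.0 ± 1.81 and 36.1 ± 6.81 at 12 h, varied within the control group, and its 20 Gy call at 12 h was lost without control replicate 1. Its 24 h calls (22.8 ± 2.54 and 26.5 ± 17.8 FPKM) were lost without control replicate 1 or 3, without 5 Gy 24 h replicate 3 and without 20 Gy 24 h replicate 2 or 3.

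Some falls appeared only between 12 h and 24 h. MSTRG.11944, 30590 bases past the elongation factor gene Ell2, had 9.55, 9.57 and 9.98 FPKM in the control libraries and 7.85 to 12.1 FPKM at 12 h. At 24 h it had 0.819, 1.54 and 1.26 FPKM after 5 Gy and 0.175, 0.691 and 0.412 FPKM after 20 Gy. All 24 h libraries were below all others. The log2 change was -2.29 ± 0.16 and -2.92 ± 0.16 (adjusted p = 8.35e-08 and 1.09e-08), while the named Ell2 span changed by 0.87 and 0.90. MSTRG.17431 on chromosome 4 rose at 12 h, from 3.50 ± 0.432 to 7.63 ± 1.86 and 7.14 ± 0.546 FPKM, and then fell to 0.233 ± 0.0749 and 0.313 ± 0.0868 at 24 h.

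The doses differed at 24 h most often in loci that overlap a named gene. Of these 457 loci, 36 passed the comparison of doses (7.88%), with 8 higher and 28 lower after 20 Gy, compared with 2.59% of all loci tested. In the downstream class 14 of 1014 loci were called. The difference between the classes was not tested. When only the 24 h groups were fitted, 4 of the overlapping loci were called, with fits of single rows 19, and with a fold change of at least 2 there were 8. MSTRG.18652, on the minus strand within the span of Trit1 (a tRNA-modifying enzyme), had 2.39, 2.24 and 2.92 FPKM at 24 h after 5 Gy and 0.460, 0.215 and 0.354 after 20 Gy. The control libraries lay between them, at 1.55, 1.68 and 1.88. MSTRG.2994 in the span of Wbp1l had 5.69, 6.98 and 7.17 FPKM at 24 h after 5 Gy and 2.69, 2.04 and 2.24 after 20 Gy, compared with 0.970, 0.674 and 0.803 in the control libraries.

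A few loci near 0 before 24 h were higher after 20 Gy than after 5 Gy. MSTRG.25464 lies 3451 bases past Emd, which encodes the nuclear membrane protein emerin, at chrX:156448599-156449366. It was listed at 0 in every 12 h library and in all control libraries but 1, which had 0.0631 FPKM. At 24 h it had 2.85, 2.15 and 1.06 FPKM after 5 Gy and 13.2, 17.8 and 9.88 FPKM after 20 Gy. These dose groups did not overlap. The log2 difference between the doses was 2.29 ± 0.21 (adjusted p = 7.69e-05). The locus passed the limit of 0.5 FPKM only through the 24 h groups, so its higher values there are a description.

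MSTRG.25465, 1442 bases past the neighbouring gene Flna (filamin A, a cross-linker of actin), followed the same course. The control and 12 h libraries were at or under 0.0511 FPKM, and at 24 h the libraries had 1.5, 1.49 and 0.463 FPKM after 5 Gy and 7.68, 9.61 and 10.4 FPKM after 20 Gy. This locus passed the limit of 0.5 FPKM only through the 20 Gy 24 h group. The doses did not overlap at 24 h, with a log2 difference of 2.28 ± 0.17, which for this reason is a description. The named Flna span changed by 0.55 and 0.04 at 24 h after 5 Gy and 20 Gy against the control group, and Emd by 0.84 and 0.91.

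MSTRG.5832 overlaps Uspl1, which encodes a SUMO protease, at chr12:6946207-6948414. Its FPKM was 0.150, 0.309 and 0.138 in the control libraries and at most 0.164 at 12 h. At 24 h it was 3.10, 2.44 and 2.65 after 5 Gy and 9.44, 7.43 and 8.72 after 20 Gy. The groups at 24 h did not overlap with each other or with the rest. The log2 difference between the doses was 1.35 ± 0.11 (adjusted p = 2.22e-05). MSTRG.5832 passed the limit of 0.5 FPKM only through the 24 h groups, so its higher values there are a description.

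At 12 h the only locus called between the doses was MSTRG.2524, 22876 bases past Atl3, with 0.507 ± 0.0573 FPKM after 5 Gy and 1.41 ± 0.228 FPKM after 20 Gy, compared with 2.73 ± 0.522 FPKM in the control group. Its adjusted p was 0.0487, and the call was lost without any one of the 5 Gy 12 h libraries and without 20 Gy 12 h replicate 1 or 2.

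Among the 10 loci of the highest level, which the rule on FPKM chose, MSTRG.18586 and MSTRG.3821 had their highest levels at 24 h after 20 Gy. MSTRG.18586 had 843 ± 33.2 FPKM in that group and group means between 510 and 575 FPKM elsewhere, and its log2 change of 0.55 against the control group stayed under the fold limit. MSTRG.3821 had 591, 485 and 553 FPKM at 24 h after 20 Gy and 296 to 378 FPKM in all other libraries, with a log2 difference between the doses at 24 h of 0.77 ± 0.09 (adjusted p = 0.000303). Its call against the control group was lost without 20 Gy 24 h replicate 1. MSTRG.10655, 203 bases within the span of Myo7b, was lower in every exposed group, at 439, 490 and 497 FPKM in the control libraries and 129 to 201 FPKM in the exposed ones. MSTRG.14170 fell at 24 h from 174 ± 22.4 to 63.6 ± 4.00 and 56.9 ± 19.2 FPKM. Its neighbour MSTRG.14169 was listed at 0 in some libraries of every group and at 154 to 453 FPKM in the rest, and was not called. MSTRG.7700 and MSTRG.7701 occupy the same 463 bases on opposite strands and shared their FPKM in several libraries.

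The changes of downstream loci were related to those of the gene they follow, with a higher r for those within 1 kb. For 842 downstream loci within 5 kb of a named gene with a mean FPKM of at least 0.5 (764 genes), the log2 changes of locus and gene had a Pearson r of 0.361 and 0.373 at 12 h after 5 Gy and 20 Gy, and of 0.489 and 0.439 at 24 h. For the 553 loci within 1 kb, r was 0.399, 0.403, 0.550 and 0.515. For the 289 loci at over 1 to 5 kb it was 0.263, 0.304, 0.362 and 0.292. Upstream loci (n = 260) had an r of 0.153 and 0.0920 at 12 h and 0.265 and 0.302 at 24 h, overlapping loci (n = 278) an r of 0.0760 to 0.164, and loci at over 5 to 50 kb (n = 312) an r between -0.0263 and 0.0384. Loci at over 50 kb (n = 61) had an r of -0.0369 and 0.0609 at 12 h and of 0.178 and 0.136 at 24 h. Beyond 5 kb, r thus did not fall steadily with distance. From 12 h to 24 h after 5 Gy and 20 Gy, r was 0.525 and 0.474 downstream and 0.146 and 0.0905 at over 5 to 50 kb. These correlations are across loci, which share the libraries and in part the gene, and no p-value is given.

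At 24 h the downstream loci, like those at over 5 to 50 kb, mostly had lower changes than the nearest named gene. In the downstream class the median difference in log2 change was -0.23 after 5 Gy and -0.25 after 20 Gy, and the locus was below the gene in 66.4% and 67.7% of the 842 pairs. At over 5 to 50 kb the median difference was -0.35 and -0.31, with 64.7% and 69.6% of the 312 loci below the gene. At a pseudocount of 0.1 the downstream difference was -0.44 and -0.53. At 12 h the median downstream difference was -0.02 and -0.04. Upstream loci, by contrast, had higher changes than their genes at 12 h, with a median difference of 0.13 and 0.10. At 24 h the upstream loci were below their genes in 57.3% and 58.8% of the 260 pairs (median difference -0.13 and -0.14). Overlapping loci were below in 49.6% and 57.9% of the 278 pairs. These comparisons with the named gene were not run under another scaling of the libraries. The difference on the log2(FPKM + 1) scale is smaller for loci of low FPKM, and named genes had higher levels.

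**Figure D5:**
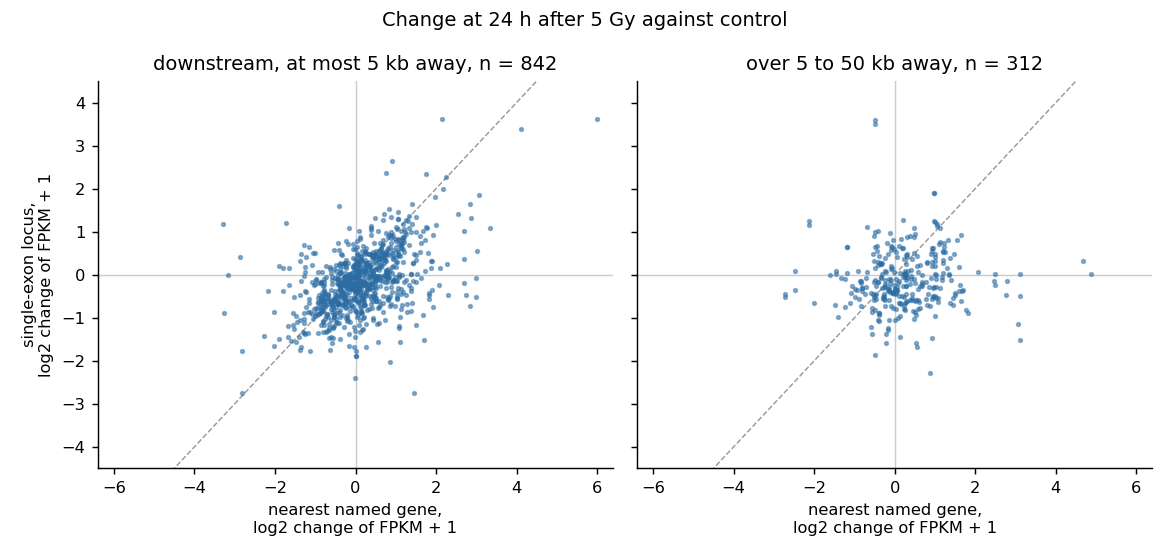
Change of log2(FPKM + 1) at 24 h after 5 Gy against the control group, of the single-exon locus (vertical axis) and of its nearest named gene (horizontal axis), for 842 downstream loci within 5 kb (left) and 312 loci at over 5 to 50 kb (right). Points are loci and the broken line marks equal change. In this comparison r was 0.489 in the left panel and 0.0252 in the right one.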

How the data were processed

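The authors trimmed the reads with Trimmomatic, checked them with FastQC, mapped them to Rnor_6.0 with HISAT2 (version 2.0.13), converted them with samtools (version 1.9) and assembled transcripts with StringTie (version 1.3.5). The deposited table gives 1 FPKM value per transcript and library, normalized by the authors to transcript length and library size, with no scaling between libraries added here. Counts were not analysed here. The protocol is not stated to keep the strand.

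Rows were summed per locus, and the position of a locus was measured against the named spans of the same table. Library depth was estimated from the spacing of low FPKM values (tolerance 0.05 of a step), at which 83.8% to 85.7% of the values were whole compared with about 8% at other steps. The 17802 loci that passed the limit of 0.5 FPKM were tested on log2(FPKM + 1) with limma 3.58.1 in R 4.3.3 (two-sided), with 1 mean per group, a variance prior with a trend and Benjamini-Hochberg adjustment over all of them. Tests set every irradiated group against the control, 24 h with 12 h at each dose, 20 Gy with 5 Gy at each time, and the course over time between doses as an interaction. An exact permutation of 3 against 3 libraries cannot give a p below 0.1 and was not used for calls. On simulated data for 20 Gy at 24 h against control, with 200 of 17802 loci changed, 73% of the loci given a log2 change of 1 and 91% of those given 2 were recovered, 0 with the wrong sign, and 2 unchanged loci were called.

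Loci named in the text were the 10 of the highest mean FPKM; per comparison, the 3 called loci that rose most and the 3 that fell most, given a mean of 1 FPKM or more and groups that do not overlap (all called loci where there were 5 or fewer between doses); loci within 10 kb of a gene on a list (p53 targets, heat shock, immediate early, store-operated calcium entry, genes of the paper on no other list, long non-coding and imprinted genes); the 3 loci on either side of the limit; and the 5 with the largest median change among those called alike in all 4 comparisons with the control group. Only some of them are described. Outside this rule, the loci beside microRNA genes and MSTRG.7765 and MSTRG.4892 were named after their neighbours or values were seen. The members and lists were chosen with earlier results of these data known. The table of microRNAs had no mature sequence for Mir15a, Mirlet7f1, Mir30b and Mir486, which are named only. Replicates are labelled as separate samples, and p-values measure the spread between them.
Alternatives changed the pseudocount, the filter, the scaling, the groups fitted, the fold change, the unit tested (single rows) and the loci counted, added the replicate number as a block, or left out each library. Those for the position classes, for pairs of loci on both strands, and for loci sharing no base, with at least 10 read equivalents or on assembled chromosomes were chosen after seeing the data. FPKM are relative to each library, so a large change of some transcripts moves the values of all others.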

Additional observations from a re-analysis of the deposited data

Results flagged for a closer look

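Groups of 3 libraries were too small for a check for outlying libraries. Of the loci named in the text, 9 changed differently from 12 h to 24 h after 20 Gy than after 5 Gy, by the interaction term in limma. The rule that named loci also used this test, so that number is in part set by the rule. The values are the log2 change after 20 Gy minus that after 5 Gy, with SE, for n = 3 libraries per group. Of the 2876 loci, 27 passed this test, 14 higher and 13 lower (0.939%, compared with 0.652% of all loci tested).

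The change over time was larger after 20 Gy in MSTRG.25465 by Flna (2.31 ± 0.25) and MSTRG.25464 by Emd (2.29 ± 0.30, adjusted p = 0.00439 in limma). The same held for MSTRG.5832 in the span of Uspl1 (1.47 ± 0.15, adjusted p = 0.000734 in limma). The difference was 1.75 ± 0.23 in MSTRG.22144 by Chordc1, which rested on few reads. Its change was -0.63 after 5 Gy and 1.12 after 20 Gy, so the directions were opposite. MSTRG.25465 and MSTRG.22144 passed the limit of 0.5 FPKM only through the 20 Gy 24 h group, so their values are a description. MSTRG.25464 and MSTRG.5832 passed it only through the 24 h groups, so their rises are a description as well. MSTRG.3821, one of the loci of the highest level, had a difference of 0.83 ± 0.12 (adjusted p = 0.00869 in limma).

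The change was lower after 20 Gy in MSTRG.17724 upstream of Tp53inp1 (-1.52 ± 0.26, adjusted p = 0.0219 in limma). This call was lost when any of 7 of the 12 libraries of these groups was left out, with an adjusted p of up to 0.0659. The difference was -1.26 ± 0.19 in MSTRG.18652 in the span of Trit1 (adjusted p = 0.00988 in limma) and -1.22 ± 0.19 in MSTRG.3110 in the span of Sfxn4 (adjusted p = 0.0123 in limma). It was -0.83 ± 0.17 in MSTRG.2994 in the span of Wbp1l (adjusted p = 0.0446 in limma).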

How the results depend on the processing

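Of 113 called comparisons of loci named by rule or beside microRNA genes, 88 were kept with every single library left out and 77 under every alternative, and none reversed. MSTRG.7765 and MSTRG.4892 were not run. The counts of called loci below are in the order 5 Gy and 20 Gy at 12 h, 5 Gy and 20 Gy at 24 h, and 24 h against 12 h after 5 Gy and 20 Gy. With a mean FPKM of at least 1 they were 142, 129, 610, 619, 546 and 598, with fewer loci (1501) tested. With a fold change of at least 2 they were 71, 56, 399, 399, 316 and 358. Leaving out 1 library gave 247 to 286, 229 to 259, 1011 to 1035, 984 to 1091, 900 to 1008 and 945 to 1099. At 12 h after 20 Gy, 171 loci passed with single rows and 180 among loci that share no base with another locus.

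Between the doses at 24 h (74 loci), 123 passed at a pseudocount of 0.1, 8 when only those groups were fitted, 134 at an unadjusted p, 15 at a fold change of at least 2, 39 with single rows, 38 among loci overlapping no named gene, 31 among those sharing no base, and 55 to 86 with 1 library left out. For the interaction (27 loci), 15 passed without a filter, 14 when only those groups were fitted, 167 at an unadjusted p, 15 at a fold change of at least 2, 7 with single rows, 14 among loci overlapping no named gene, 12 among those sharing no base, and 9 to 35 with 1 library left out. Between the doses at 12 h (1 locus), 29 passed at an unadjusted p, 0 at a pseudocount of 0.1, without a filter, at a mean of at least 1, when only those groups were fitted, with the replicate block, at a fold change of at least 2 and with single rows, and 0 to 2 with 1 library left out. The cause was not tested where fewer loci or samples do not give it.

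Replicates share only a number. Same-numbered libraries of different groups had deviations correlated at -0.188 to 0.317 (median 0.0131, 30 pairs), and the replicate block left 15 loci for the interaction, 66 between the doses at 24 h and 0 at 12 h. For the 484 loci under 10 read equivalents, differences may not have been detectable at this depth.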
